A study of Homo sapiens with 2 samples.

Results

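The 10 genes described here are MAP kinase feedback genes, the dual-specificity phosphatases DUSP1, DUSP2, DUSP4, DUSP5, DUSP6 and DUSP10, the Sprouty genes SPRY1 and SPRY2, and the Sprouty-related genes SPRED1 and SPRED2. They were taken by name, and all 22 probe sets that the platform annotation gives to 1 of these genes alone were used, out of 54613 probe sets on the array and 19775 genes with a probe set of their own. Transcript levels had been measured on expression arrays in 2 samples whose label is HL60, an established human leukaemia line of promyelocyte type. One was given 3 µg/ml eltrombopag for 36 h, a drug that activates the thrombopoietin receptor and chelates iron. The other was untreated, with no vehicle and no time in culture named for it. Both cultures were grown in RPMI with 10% serum. The feedback genes were examined as a transcriptional readout of ERK signalling, since HL60 is known for an activating mutation in a RAS gene. The arrays do not show that genotype.

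RAS proteins activate RAF, MEK and the MAP kinase ERK in turn, and ERK enters the nucleus and switches on genes that restrain the same pathway. The dual-specificity phosphatases remove the activating phosphates from MAP kinases, Sprouty proteins limit the activation of RAS by receptors, and SPRED proteins bring neurofibromin, which switches RAS off, to the membrane. In cancer cells with a mutant RAS gene these feedback transcripts are widely used as a measure of pathway output, because their mRNAs are short-lived and fall soon after MEK is inhibited.

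Each group held 1 sample. Every difference below is therefore a difference between 2 arrays with no replicate check, and neither p-values nor an error between samples can be given. Values are MAS5 signals, a linear brightness per probe set, and the number of arrays limits their precision. Signals under a floor of 56.9, which is the 60th percentile over the pooled signals of both arrays, were replaced by the floor ahead of the log2 step. A gene above the floor in at least 1 sample is called measured, which held for 10314 genes. Ratios are eltrombopag over untreated. Where a gene had more than 1 probe set, its ratio was read from that of the highest mean log2 signal. The signals of different probe sets depend on their probes and are not compared as amounts of transcript. The median ratio of all measured genes was -0.12 on the log2 scale, with quartiles of -0.37 and 0.11, so a gene at 0 lay above most others. The mean signal without the highest and lowest 2% was 164.9 in the eltrombopag sample and 176.6 in the untreated one.

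The markers of the labelled cell line were only partly present. By the choice of floor, 9597 of all 19775 genes exceeded it on both arrays. Of 11 promyelocyte and myeloid markers on the array, 8 exceeded the floor on both arrays. They included MPO, the granule enzyme myeloperoxidase, with 1467 in the eltrombopag and 1556 in the untreated sample. SPI1, the transcription factor PU.1 of myeloid cells, was below the floor at 16.7 with eltrombopag and 31.3 untreated. ELANE, neutrophil elastase, was too, at 8.04 with eltrombopag and 11.1 untreated. CD34, the marker of blood stem cells, which the label names as the cell type, was below the floor too. Of the 8 measured markers, 6 had a ratio below 0, where 36.6% of all measured genes had one above 0. Of all measured genes 2.27% were at least 2-fold lower with eltrombopag, and of the 8 markers 2 were. These were CEBPA, a myeloid transcription factor, with 279.1 in the eltrombopag and 818.7 in the untreated sample, and CSF3R, the receptor of granulocyte colony-stimulating factor, with 251.3 in the eltrombopag and 564.4 in the untreated sample. The 11 markers summed to 9043 in the eltrombopag sample and 8822 in the untreated one. MYB, a progenitor factor, made up the greatest share of that sum, with 5855 in the eltrombopag and 4349 in the untreated sample. All 10 plasma cell markers exceeded the floor on both arrays. Their summed signal was 10868 in the eltrombopag sample against 18263 in the untreated one. With eltrombopag 5 of the 10 were at least 2-fold lower, beside 2.27% of all measured genes. Markers of further cell types passed the floor in at least 1 sample for 2 of 5 of B cells and 2 of 6 of T cells. For erythroid cells and megakaryocytes it was 1 of 5, and for fibroblasts and epithelium 2 of 7. Of all 19775 genes, 10314 did so, and these short lists are not told apart from that share. The plasma cell signals go against the cell line label taken alone, the RAS genotype of the cells is therefore not known here, and the part of the plasma cell genes' source in the ratios below was not tested. In bulk RNA, fewer cells of a type and less RNA per cell cannot be told apart.

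Promoter sequence is shown for DUSP1, DUSP6 and SPRY2, which stand for an immediate early phosphatase near the floor, the ERK phosphatase with 3 bright probe sets, and a Sprouty gene. The windows are from RefSeq on build GRCh38.p14 and hold 250 bases before and 50 bases after an annotated start, on the strand of the gene, 5′ to 3′. Capitals mark matches on either strand to the cyclic AMP response element TGACGTCA or its short form TGACG, which lies within it on both strands. They also mark matches to the ETS pattern CCGGAA, the AP-1 site TGANTCA and the CArG box bound by serum response factor. The shorter ETS core GGAA was not searched. DUSP1 is at chr5:172771146-172771445 on the minus strand, DUSP6 at chr12:89352452-89352751 on the minus strand, and SPRY2 at chr13:80341077-80341376 on the minus strand.
DUSP1: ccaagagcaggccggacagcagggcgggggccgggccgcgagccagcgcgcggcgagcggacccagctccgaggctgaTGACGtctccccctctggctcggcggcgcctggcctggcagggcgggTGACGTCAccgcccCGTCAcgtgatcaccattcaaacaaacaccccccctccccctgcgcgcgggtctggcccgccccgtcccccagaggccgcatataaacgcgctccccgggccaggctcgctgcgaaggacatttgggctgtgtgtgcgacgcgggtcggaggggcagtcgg
DUSP6: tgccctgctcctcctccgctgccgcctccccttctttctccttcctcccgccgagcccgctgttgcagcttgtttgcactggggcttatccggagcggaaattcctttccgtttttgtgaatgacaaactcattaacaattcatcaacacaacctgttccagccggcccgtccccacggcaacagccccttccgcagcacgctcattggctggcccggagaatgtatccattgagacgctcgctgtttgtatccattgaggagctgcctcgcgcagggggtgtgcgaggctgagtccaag
SPRY2: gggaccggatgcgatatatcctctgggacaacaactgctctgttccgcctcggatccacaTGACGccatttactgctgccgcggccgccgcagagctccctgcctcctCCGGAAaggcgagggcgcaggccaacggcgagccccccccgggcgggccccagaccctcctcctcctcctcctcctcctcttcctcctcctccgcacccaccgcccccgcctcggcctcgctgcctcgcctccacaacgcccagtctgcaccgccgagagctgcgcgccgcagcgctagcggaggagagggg

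The DUSP1 window held the complete TGACGTCA, beginning at position -125 from the start, and separate short forms at -172 and, on the other strand, -111. The SPRY2 window shown held a short form at -190 and the ETS pattern at -142. It is 1 of 3 windows listed for SPRY2, and the other 2 held no match. No motif of the search was found in the DUSP6 window, which says only that these letters are not in it. Across the 13 windows listed for 8 of the 10 genes, all but DUSP4 and DUSP5, TGACGTCA was found in 1, the short form in 4, CCGGAA in 2, the AP-1 site in 1 and the CArG box in 0. Among all 35116 windows of this length, these motifs were found in 1.85%, 24.6%, 17.2%, 7.71% and 1.29%. A match is a description of the letters and not of binding.

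No feedback gene differed by 2-fold between the eltrombopag and the untreated sample. All 10 genes were measured, and 0 passed this limit upwards and 0 downwards, where 0.65% of all measured genes passed it upwards and 2.27% downwards. Over all genes that was 67 upwards and 234 downwards on the deposited scale, 108 and 133 after quantile normalization and 104 and 137 after lowess. At a limit of 1.5-fold the counts were again 0 and 0, beside 3.49% and 11.8% of measured genes. With so few genes, counts of 0 lie near these background shares. The log2 ratios ran from -0.35 for DUSP2 to 0.45 for SPRY1, an interval that held 66.3% of all measured genes. The median of the 10 ratios was -0.11, beside -0.12 for all measured genes, and 5 of the 10 lay below the median gene and 5 above it. The median of the 10 turned positive, to 0.03 after quantile normalization and 0.01 after lowess, where that of all measured genes was -0.01 and -0.02. By quartile, 6 lay between the quartiles of all measured genes, 4 above the upper one and 0 below the lower one. Among the 4, DUSP1 passed the floor in the eltrombopag sample alone, so its ratio could only be positive. SPRY1, also among them, had -0.22 in its other probe set, so this count does not show a shift upwards.

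**Figure D1:**
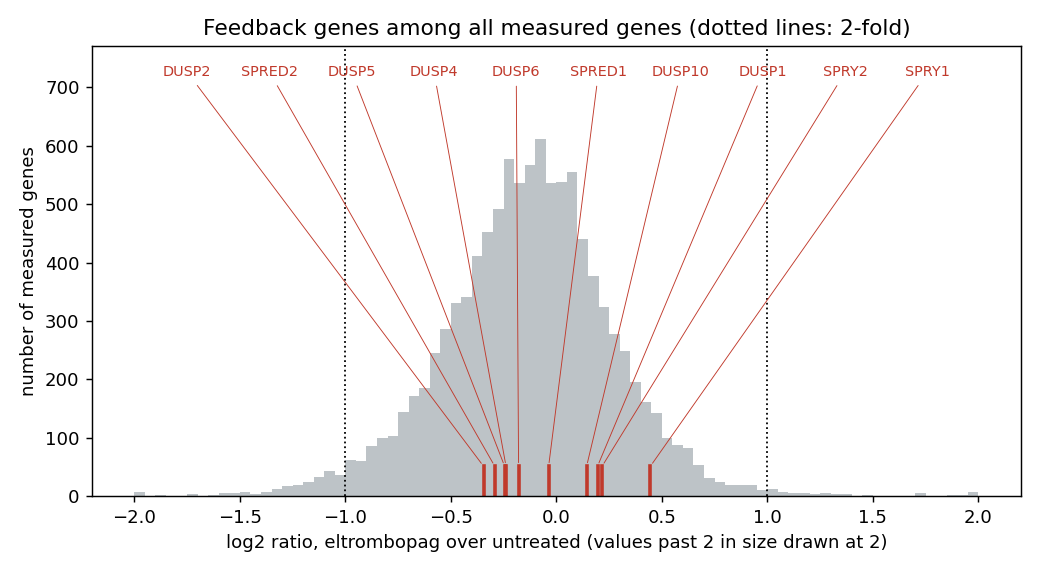
Number of measured genes (vertical axis) by log2 ratio of eltrombopag over untreated (horizontal axis, 0.05 per bar), with the 10 feedback genes as red marks and 2-fold as dotted lines. The 10 marks run from -0.35 for DUSP2 to 0.45 for SPRY1, with 4 of them above the upper quartile of all measured genes and 0 below the lower one. Among the 4, DUSP1 was above the floor with eltrombopag alone and could only be positive, and the probe sets of SPRY1 disagreed in direction.

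DUSP6, a cytoplasmic phosphatase that acts on ERK and is a common transcriptional readout of ERK activity, had the smallest spread of the 5 genes with more than 1 measured probe set. Its probe set 208891_at had a signal of 2569 in the eltrombopag sample and 2909 in the untreated one. The probe set 208892_s_at had 2329 with eltrombopag and 2529 untreated, and 208893_s_at had 893.2 with eltrombopag and 1053 untreated. All 3 were lower in the eltrombopag sample by small amounts, with log2 ratios of -0.18, -0.12 and -0.24, which straddle the median gene at -0.12. The spread between them was 0.12. The ratio used for DUSP6 lay at percentile 43.6 of all measured genes, and relative to the median gene it was -0.06.

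DUSP5, a nuclear phosphatase specific to ERK, was read by a single probe set, with a signal of 210.5 in the eltrombopag and 249.5 in the untreated sample, a log2 ratio of -0.25. DUSP2, a nuclear phosphatase abundant in activated blood cells, also had 1 probe set, with 176.9 in the eltrombopag sample and 224.7 in the untreated one. Its log2 ratio of -0.35 was the lowest of the 10 and lay at percentile 27.3, above the lower quartile of all measured genes. Relative to the median gene, DUSP5 was at -0.12 and DUSP2 at -0.22.

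DUSP4, a nuclear phosphatase of ERK and JNK, was lower in the eltrombopag sample in 3 of 3 probe sets, by unequal amounts. The probe set used, 226034_at, had 258.6 with eltrombopag and 305.0 untreated, a 1.18-fold difference. The probe set 204014_at had 164.6 in the eltrombopag and 281.1 in the untreated sample. The third, 204015_s_at, had 118.3 with eltrombopag and 199.9 untreated. Those 2 were 1.71-fold and 1.69-fold lower, with log2 ratios of -0.77 and -0.76 against -0.24 for the one used. They were the only ones of the 17 measured probe sets of the feedback genes to pass 1.5-fold downwards, and 0 passed it upwards, where 12.2% and 3.76% of 18634 measured probe sets did so. The mean over the DUSP4 probe sets was -0.59, the lowest of the 10 genes by that measure.

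DUSP1, a nuclear phosphatase of p38, JNK and ERK and itself an immediate early gene, lay at the edge of detection. The probe set 201041_s_at had 65.2 in the eltrombopag and 47.6 in the untreated sample, so it passed the floor in the eltrombopag sample alone. Its log2 ratio of 0.20, at least 1.14-fold, is a lower bound and could only be positive for that reason. As deposited, without the floor, the log2 ratio was 0.45. The other DUSP1 probe sets were below the floor in both samples, 226578_s_at at 49.4 with eltrombopag and 25.2 untreated, and 201044_x_at at 3.62 with eltrombopag and 5.29 untreated. These dim signals do not run one way, and no fold is given for them.

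DUSP10, a phosphatase that prefers p38 and JNK over ERK, had log2 ratios above 0 in both of its probe sets. The probe set 221563_at had 439.3 in the eltrombopag sample and 397.7 in the untreated one, a log2 ratio of 0.14. The other probe set, 215501_s_at, had 149.4 with eltrombopag and 105.1 untreated, a log2 ratio of 0.51. The difference between the pair, 0.36, was larger than in 72.8% of the 4374 genes for which at least 2 probe sets exceeded the floor on both arrays, compared on their 2 brightest. The ratio used lay at percentile 77.8 of all measured genes.

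**Figure D2:**
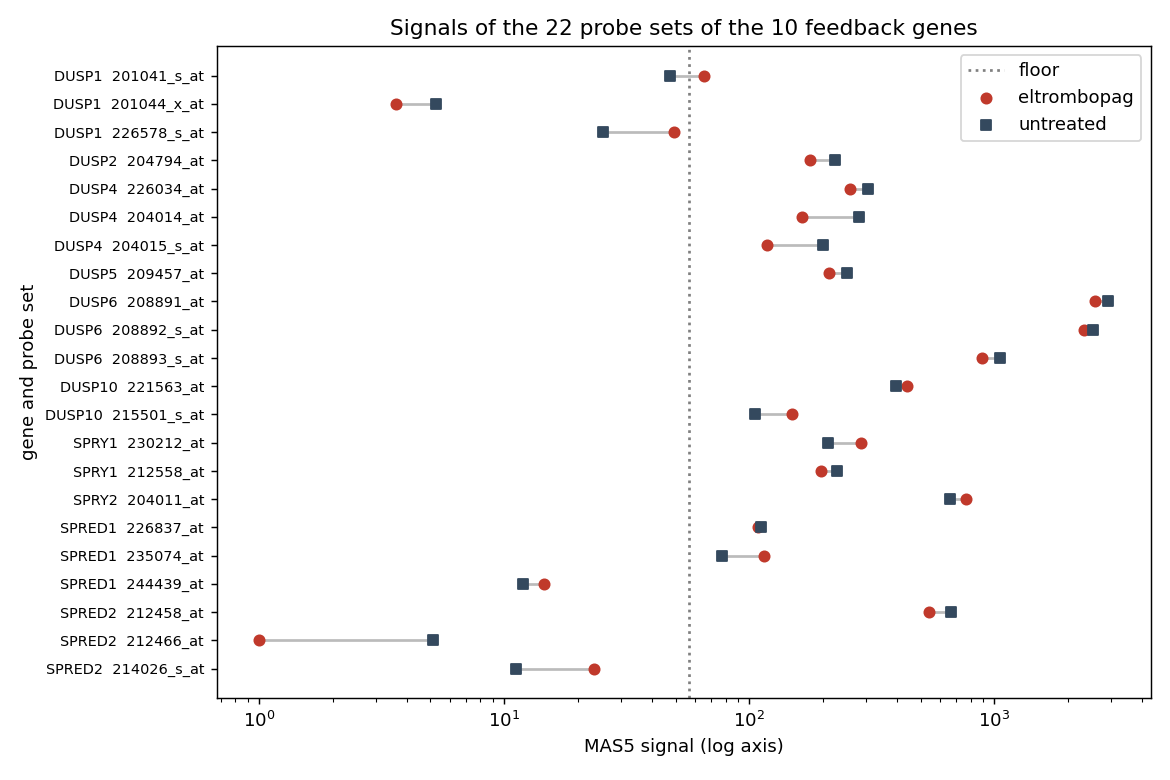
MAS5 signal on a log axis for each of the 22 probe sets of the 10 genes, with eltrombopag as red circles, untreated as dark squares and the floor of 56.9 as a dotted line. The points of a pair lie close together for most probe sets above the floor, 16 probe sets lie above it in both samples, and 5 lie below it in both.

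Among the Sprouty genes, SPRY2, an inhibitor of receptor signalling to RAS, had 768.6 in the eltrombopag sample and 661.3 in the untreated one in its single probe set. Its log2 ratio of 0.22 lay at percentile 83.1. SPRY1, its paralogue, had the highest ratio of the 10 genes at this floor and in the probe sets used, and its probe sets disagreed in direction. With a floor at the 50th percentile or none, DUSP1 was the highest at 0.45, and with the mean over probe sets DUSP10 was, at 0.33. The probe set used, 230212_at, had 285.0 with eltrombopag and 209.3 untreated, a log2 ratio of 0.45 at percentile 93.5 of all measured genes. The probe set 212558_at had 195.5 in the eltrombopag and 226.9 in the untreated sample, a log2 ratio of -0.22. Their difference of 0.66 was larger than in 92.2% of such pairs on the array, and their mean was 0.12. SPRY1 therefore has no settled direction in these data.

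SPRED2, which restrains RAS at the membrane, had 542.3 in the eltrombopag and 663.9 in the untreated sample in probe set 212458_at, a log2 ratio of -0.29 at percentile 31.9, the lowest of the 10 after DUSP2. Its other probe sets were below the floor in both samples, 214026_s_at at 23.3 with eltrombopag and 11.2 untreated and 212466_at at 1 with eltrombopag and 5.12 untreated. SPRED1 had 108.4 with eltrombopag and 111.2 untreated in the probe set used, 226837_at, a log2 ratio of -0.04. The probe set 235074_at had 115.2 with eltrombopag and 77.4 untreated, a log2 ratio of 0.57, the highest of any measured probe set in the group. A further SPRED1 probe set, 244439_at, was below the floor at 14.6 with eltrombopag and 12.0 untreated. The difference between the measured SPRED1 probe sets, 0.61, was larger than in 90.6% of pairs, so SPRED1 has no settled direction either.

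**Figure D3:**
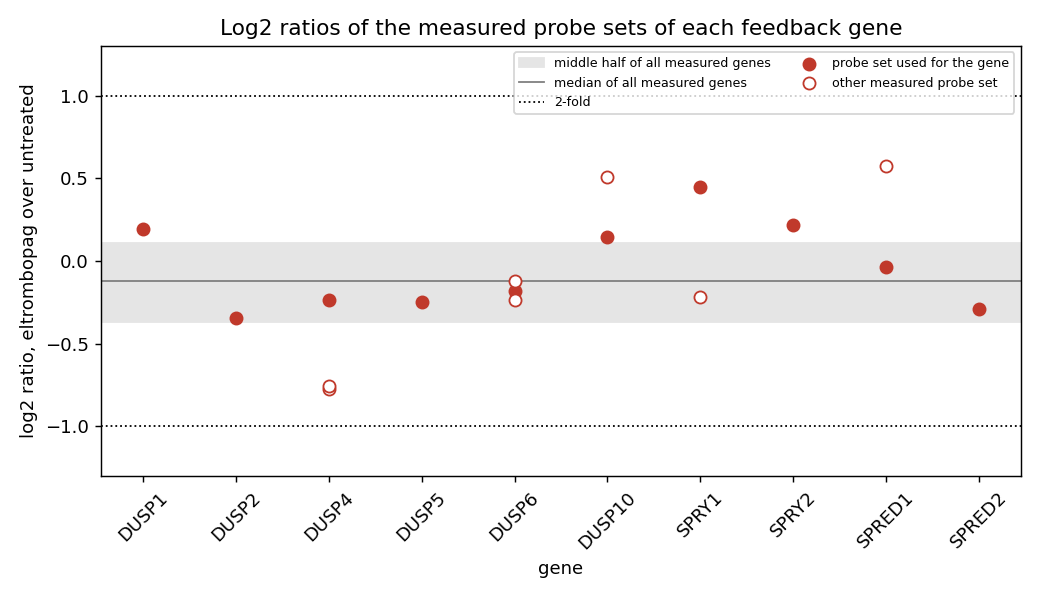
Log2 ratio of eltrombopag over untreated (vertical axis) for the 17 measured probe sets by gene, with filled circles for the probe set used and open circles for the others; the band spans the quartiles of all measured genes, -0.37 to 0.11. No point reaches the 2-fold lines, the DUSP6 points nearly coincide, and those of SPRY1 and SPRED1 lie on both sides of 0.

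How far probe sets of 1 gene differ holds error inside the arrays and any difference in what their probes detect, which cannot be told apart here. It does not measure error between replicates. Over the 4374 genes, the median difference in log2 ratio between 2 probe sets was 0.21, and it exceeded 0.76 in the widest 5%. For pairs whose dimmer probe set had a mean signal of 57.2 to 125.9 the median was 0.26. Where the dimmer one had 493.2 or above, it was 0.14. Of the 10 feedback genes, DUSP4, DUSP6 and DUSP10 had more than 1 measured probe set with ratios of 1 sign, SPRY1 and SPRED1 had ratios of both signs, and the remaining 5 rested on 1 measured probe set each.

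The rest of the family and of the pathway was read from lists chosen by role, with earlier results of these data known. Among 7 other MAP kinase phosphatase, Sprouty and SPRED genes, 5 were measured, 0 reached 2-fold in either direction, and the median log2 ratio was -0.15. SPRED3 had the largest ratio of them, with 132.3 in the eltrombopag and 72.9 in the untreated sample, a 1.81-fold difference in a single probe set. SPRY4, an ERK-induced Sprouty gene, had 45.5 with eltrombopag and 63.1 untreated, and so passed the floor in the untreated sample alone. DUSP7 and DUSP16 had log2 ratios of -0.28 and -0.21, and DUSP8 passed the floor in the eltrombopag sample alone, at 68.1 against 48.6 untreated.

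The small atypical phosphatases, which lack the kinase-binding domain of the MAP kinase phosphatases, had a median below that of all measured genes. Of 12 genes, 9 were measured, 8 of them with a ratio below 0, where 36.6% of all measured genes had one above 0. The median was -0.41, beside -0.12 for all measured genes. None of the 9 reached 2-fold. DUSP22, a regulator of JNK signalling, had 271.6 in the eltrombopag sample and 513.8 in the untreated one, a log2 ratio of -0.92, and another measured probe set gave -0.64. DUSP23 had 206.8 with eltrombopag and 361.1 untreated, and DUSP19 and DUSP12 had log2 ratios of -0.55 and -0.53. Whether this list differs from the feedback genes was not tested.

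Of 18 genes of the RAS to ERK cascade itself, 13 were analysed here and measured, 0 reached 2-fold, and the median was -0.14, beside -0.12 for all measured genes. Single members lay outside the quartiles of all measured genes, KSR1 and ARAF above the upper one and PTPN11 below the lower one. MAPK3, the kinase ERK1, had 116.5 in the eltrombopag and 145.6 in the untreated sample in 1 probe set with the suffix _x_at, and MAP2K1, the kinase MEK1, had 515.9 with eltrombopag and 637.5 untreated. PTPN11, the phosphatase SHP2, had a log2 ratio of -0.43, with -0.46 and -0.09 in other probe sets. KSR1, a scaffold of the cascade, had the highest log2 ratio of the 13, 0.50, with 721.8 in the eltrombopag and 511.3 in the untreated sample. The kinases that ERK activates, of the RSK, MNK and MSK families, had a median of -0.14 over 7 measured genes with 0 past 2-fold, and RPS6KA3 and RPS6KA5 had log2 ratios of -0.44 and 0.39 at its ends. RPS6KA2 and MKNK2 had -0.25 and -0.22.

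Other negative regulators of RAS and ERK, a list that shares SPRY4 and SPRED3 with the family list, had a median of 0.04 over 9 measured genes, and 0 reached 2-fold. RASA3, a GTPase activator of RAS family proteins, had 547.2 with eltrombopag and 344.8 untreated, a log2 ratio of 0.67, with 0.08 in another probe set. PEA15, which holds ERK in the cytoplasm, had -0.43, with -0.49 in another probe set, and CBL, a ubiquitin ligase of activated receptors, had -0.16.

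A further list held other transcripts that depend on ERK in RAS or RAF mutant cells. Of its 15 genes, SPRY4 again included, 14 were analysed here and 8 measured. Of these, 0 passed 2-fold upwards and 1 downwards, beside 0.65% and 2.27% of all measured genes. The median was -0.09, and it was 0.02 after lowess. The gene past 2-fold was ETV1, an ETS factor, with 65.8 in the eltrombopag and 157.9 in the untreated sample, but its other measured probe set had a log2 ratio of 0.53. ETV5 had 487.4 with eltrombopag and 494.1 untreated, CCND1, cyclin D1, had 415.0 with eltrombopag and 410.5 untreated, and ETV4 had a log2 ratio of -0.33, with 0.16 in another probe set. PHLDA1 had 0.29 and, in another probe set, 0.43.

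Immediate early genes, which growth factors and stress induce through the same cascade among others, included values outside the range of the feedback genes. Of 15 measured members of a list of 20, 2 passed 2-fold upwards, FOSB and FOS of the AP-1 factor, and 0 downwards. Of all measured genes, 0.65% passed it upwards and 2.27% downwards. The median of the list was 0.03. FOS had 575.4 in the eltrombopag sample and 153.3 in the untreated one, and FOSB had 529.9 with eltrombopag and 80.3 untreated. Each was read from a single measured probe set, and the untreated FOSB signal was close to the floor of 56.9. EGR1, a zinc finger factor, had 932.2 with eltrombopag and 550.7 untreated, with log2 ratios of 0.65 to 0.91 in its other probe sets, while KLF10 had -0.56. The ratio of 0.446 for SPRY1, with -0.22 in its other probe set, was below those of FOSB, FOS and EGR1 at 2.72, 1.91 and 0.76. JUNB at 0.51 and NR4A2 at 0.453, the latter above the floor with eltrombopag alone, also exceeded it. Below DUSP2 at -0.35 lay KLF10, KLF2 and ZFP36, at -0.56, -0.46 and -0.37. KLF2 passed the floor in the untreated sample alone. Whether the groups differ was not tested, as each gene has 1 value per array.

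**Figure D4:**
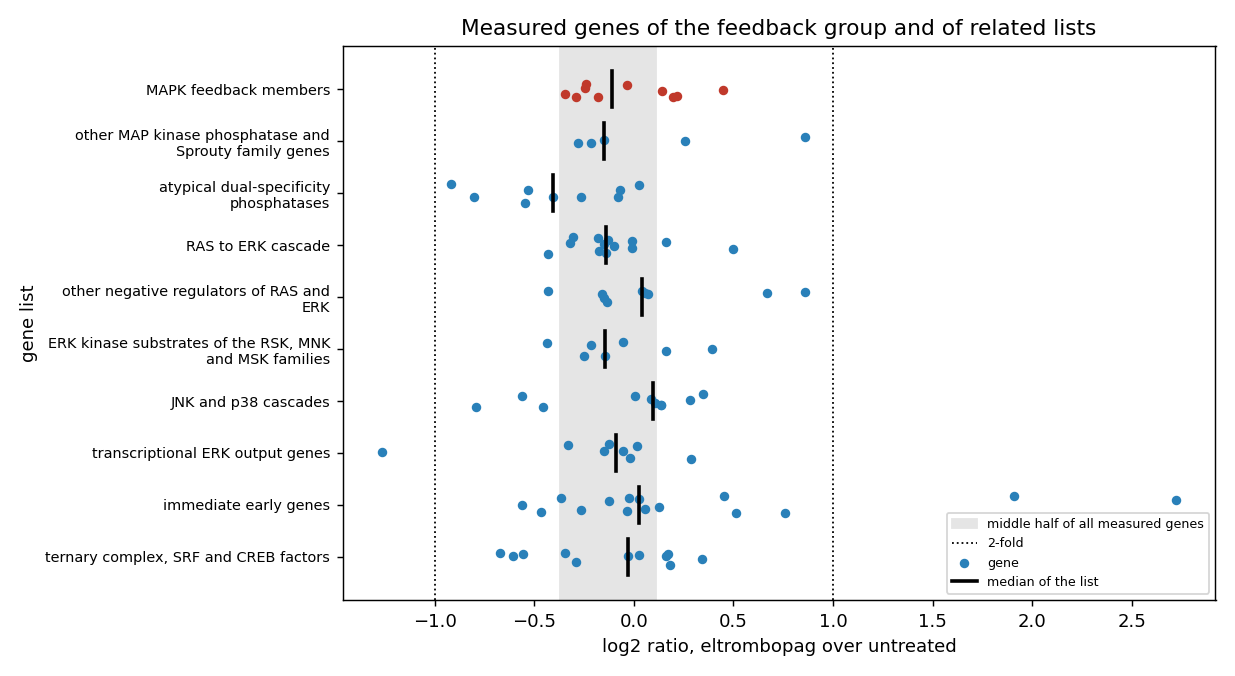
Log2 ratio of eltrombopag over untreated (horizontal axis) for each measured gene of the feedback group (red) and of 9 related lists (blue), with the median of each list as a black bar, the quartiles of all measured genes as a band and 2-fold as dotted lines. The feedback genes span -0.35 to 0.45, and 3 genes of other lists lie past 2-fold, FOSB and FOS on the higher side and ETV1 on the lower side.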

How the data were processed

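The deposited table holds 1 signal intensity per probe set for each of 2 samples, made by the authors with MAS5 per the submitters' processing notes; which version was run and how arrays were scaled is not stated there. Per the labels' protocols, RNA was extracted with Trizol and biotinylated by the Affymetrix protocol. MAS5 works on 1 array at a time and weighs each probe against its mismatch partner, which makes dim signals imprecise. Groups follow the sample labels. Of 54613 probe sets, 41091 name 1 gene in the platform annotation, 1801 name several and 11721 were not listed; 41037 identifiers matched RefSeq. Values were used as deposited, with a floor at the 60th percentile, the probe set of highest mean log2 signal per gene, and a 2-fold limit. No test was possible with 1 sample per group. The counting was tested on simulated data, with changes well past 2-fold planted in bright genes only. That check does not cover dim genes or differences as small as those of the feedback genes. The feedback genes and all gene lists were chosen with earlier results of these data known. In each list, genes past 2-fold and up to 4 with the largest ratios are named, with a fixed panel. Protein features were not analysed here. Promoter motifs were searched on both strands. Alternatives were 3 other scalings, a lower floor (50th percentile), a higher one (75th) or none, averaging a gene's probe sets, leaving out suffixes _x_at and _s_at, limits of 1.5-fold and 3-fold and, added after the data were seen, the lowest or highest probe set of each gene. Python 3.11.15, numpy 2.4.6, pandas 2.3.3 and statsmodels 0.14.6 (lowess, span 0.3) were used.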

Additional observations from a re-analysis of the deposited data

How the results depend on the processing

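The count of feedback genes past 2-fold was 0 in both directions under every alternative scaling, floor and probe set rule. These included the lowest and the highest probe set of each gene, which were chosen after seeing the data. At a 3-fold limit the count could then only be 0. At 1.5-fold it was 0 for the probe sets used on the deposited scale, while DUSP4 passed that limit with the mean over its probe sets, at -0.59, or with its lowest one, at -0.77. The median log2 ratio of the 10 was -0.11 on the deposited scale, -0.05 with median centring, 0.01 with lowess and 0.03 with quantile normalization, while the median of all measured genes moved along to -0.06, -0.02 and -0.01. It was -0.21 with the floor at the 75th percentile, which left 8 genes measured, -0.03 with the mean over probe sets, -0.18 without _x_at and _s_at probe sets, and -0.23 and 0.04 with the lowest and highest probe sets. The number below the median gene was 5 under all alternatives but the last 2, which gave 6 and 4. SPRED1 changed sign in 4 of the 7 settings of scaling, floor and probe set rule in which it was measured, reaching 0.27, and the other 9 genes kept their sign in these settings. SPRY1 was 0.12 with the mean over probe sets and -0.22 with its lowest, and DUSP1 0.45 with a floor at the 50th percentile or none. Over all measured genes, 67 were 2-fold higher and 234 lower on the deposited scale, 82 and 186 after median centring, 104 and 137 after lowess and 108 and 133 after quantile normalization. Without a floor, 1194 and 1324 genes passed 2-fold, and 37 and 98 did so with a 75th percentile floor. The median of the immediate early list was 0.32 without _x_at and _s_at probe sets, and that of the list of serum response, ETS and CREB factors -0.29 with the mean over probe sets; the cause was not tested. With the mean over probe sets, the medians of the JNK and p38 list and of the other negative regulators fell below 0, at -0.01 and -0.11. Low signal limits DUSP1, SPRED1 and SPRY4, and the lack of replicates limits every ratio.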

Other observations

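The list of JNK and p38 cascade kinases, upstream and downstream kinases included, had a median log2 ratio of 0.10 over 10 measured genes. Of these, 7 lay above 0, 3 below and 0 past 2-fold, where 36.6% of all measured genes lay above 0. The JNK and p38 kinases themselves were 4 of the 10, and 3 of these were the members below 0. MAPK8, the kinase JNK1, had 0.08, with -0.32 and -0.25 in other probe sets. MAPK11, MAPK13 and MAPK9 had the lowest ratios, at -0.79, -0.56 and -0.46, and another probe set of MAPK13 gave -0.16. MAPK9, the kinase JNK2, had 473.0 in the eltrombopag sample and 648.5 in the untreated one, and its other measured probe sets gave -0.67 and -0.55. MAPK11, the kinase p38 beta, was close to the floor in the eltrombopag sample, at 61.6 against 106.5 untreated. MAP3K4, an upstream kinase, had 0.35 and, in another probe set, 0.38.

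Factors of the serum response, ETS and CREB families had a median of -0.03 over 11 measured genes, with 0 past 2-fold. ELK3, a ternary complex factor that ERK phosphorylates, had 203.7 with eltrombopag and 324.3 untreated, a log2 ratio of -0.67. MRTFB, a coactivator of serum response factor, had -0.61, with -0.55 in another probe set. ETS1 had -0.35 and, in another probe set, -0.83. CREM had -0.56 in the probe set used, while its others ran from -0.78 to 0.17.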
